A study of Mus musculus with 2 samples.

Results

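The genes described here encode subunits of voltage-gated calcium channels, and their use was compared between parathyroid cells and the other cells of the same glands. They were the 10 features named Cacna1a, Cacna1c, Cacna1d, Cacna1h, Cacnb1, Cacnb2, Cacnb3, Cacnb4, Cacna2d1 and Cacna2d2, of 32287 features in the count matrices, and each was found in both libraries. The data are 2 droplet single-cell RNA-seq libraries of parathyroid glands from mice lacking Gcm2, the transcription factor without which the gland does not form. The hosts (Gcm2-/- on a BDF1B6 background) had been complemented with mouse embryonic stem cells carrying a Pth-tdTomato reporter, and both libraries carry these alleles. In replicate 1, 3 animals of 9 to 12 weeks were pooled, whose blood was 50 to 70% chimeric. In replicate 2, 5 animals of 6 to 13 weeks were pooled, at 60 to 70%. Males and females were mixed. The study has 1 group, so cell classes are compared within the glands. The non-parathyroid cells can come from the host or from the stem cells.

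Parathyroid cells were barcodes in which Pth, the parathyroid hormone gene, took at least 5% of the unique molecular identifiers (UMIs). After filtering, 660 barcodes of replicate 1 and 2237 of replicate 2 met this rule, of 1240 and 3313 kept. The other cell types were clusters of the 566 and 1054 barcodes with under 1% Pth, named by markers, and the ending "like" marks such a name. The member genes took no part in the clustering. The libraries shared 3 barcode sequences. The parathyroid label matched its markers. Over these barcodes Gcm2 was at 157 and 159 CPM (UMIs of the gene per 1000000 UMIs of the class), against 4.05 and 3.23 over the other cells. Casr was at 349 and 314 CPM against 8.43 and 7.30. The transcript of tdTomato was at 10092 and 10992 CPM against 100.1 and 107. It reports Pth, by which these barcodes were chosen, so it is no separate check of the label. Fibroblast-like cells numbered 230 and 453, endothelial-like cells 106 and 270, macrophage-like cells 65 and 139, and T-cell-like cells 36 and 51. The macrophage-like class includes a cluster of 27 and 36 cells that also scored for monocyte markers, with Chil3 among its leading genes. A cluster of 41 and 43 cells carried both B cell and dendritic cell genes and is called the mixed cluster. Median depth was 37729.5 and 30583 UMIs in parathyroid cells, 21694 and 19680 in fibroblast-like cells and 10250 and 7589 in endothelial-like cells.

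A voltage-gated calcium channel is built around 1 large pore-forming α1 subunit that opens when the membrane depolarizes. The L-type pores Cacna1c and Cacna1d, the P/Q-type pore Cacna1a and the T-type pore Cacna1h differ in the voltage at which they open and in how fast they inactivate. An intracellular β subunit (Cacnb1 to Cacnb4) brings the high-voltage-activated pores to the membrane and tunes their gating, and an extracellular α2δ subunit (Cacna2d1, Cacna2d2) raises their surface density. In most endocrine cells calcium entry triggers secretion, whereas parathyroid cells release less hormone when extracellular calcium rises, as read by the receptor Casr.

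Parathyroid cells carried mainly 1 pore gene, Cacna1d, together with the β gene Cacnb2, and little of any α2δ gene. Fibroblast-like cells of the same glands carried a mixture of pores with the α2δ gene Cacna2d1 and little of any β gene. Across all 10 annotated pore genes, Cacna1d gave 96.9% and 94.5% of the pore UMIs of parathyroid cells in the 2 libraries. After division by exon length it gave 97.3% and 95.1%, and after division by gene span 95.5% and 90.5%. The sources used here do not give whether intronic reads were counted, so both lengths are shown. In fibroblast-like cells no pore was as prominent on the per-exon-length scale: Cacna1d gave 32.8% and 25.6%, Cacna1c 25.4% and 28.7%, Cacna1g (a T-type pore outside the 10 genes) 25.3% and 25.7%, and Cacna1a 14.9% and 18.9%. Divided by gene span, Cacna1g led there with 59.3% and 59.5%. Cacna1g was added to the account after its values were seen.

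**Figure D1:**
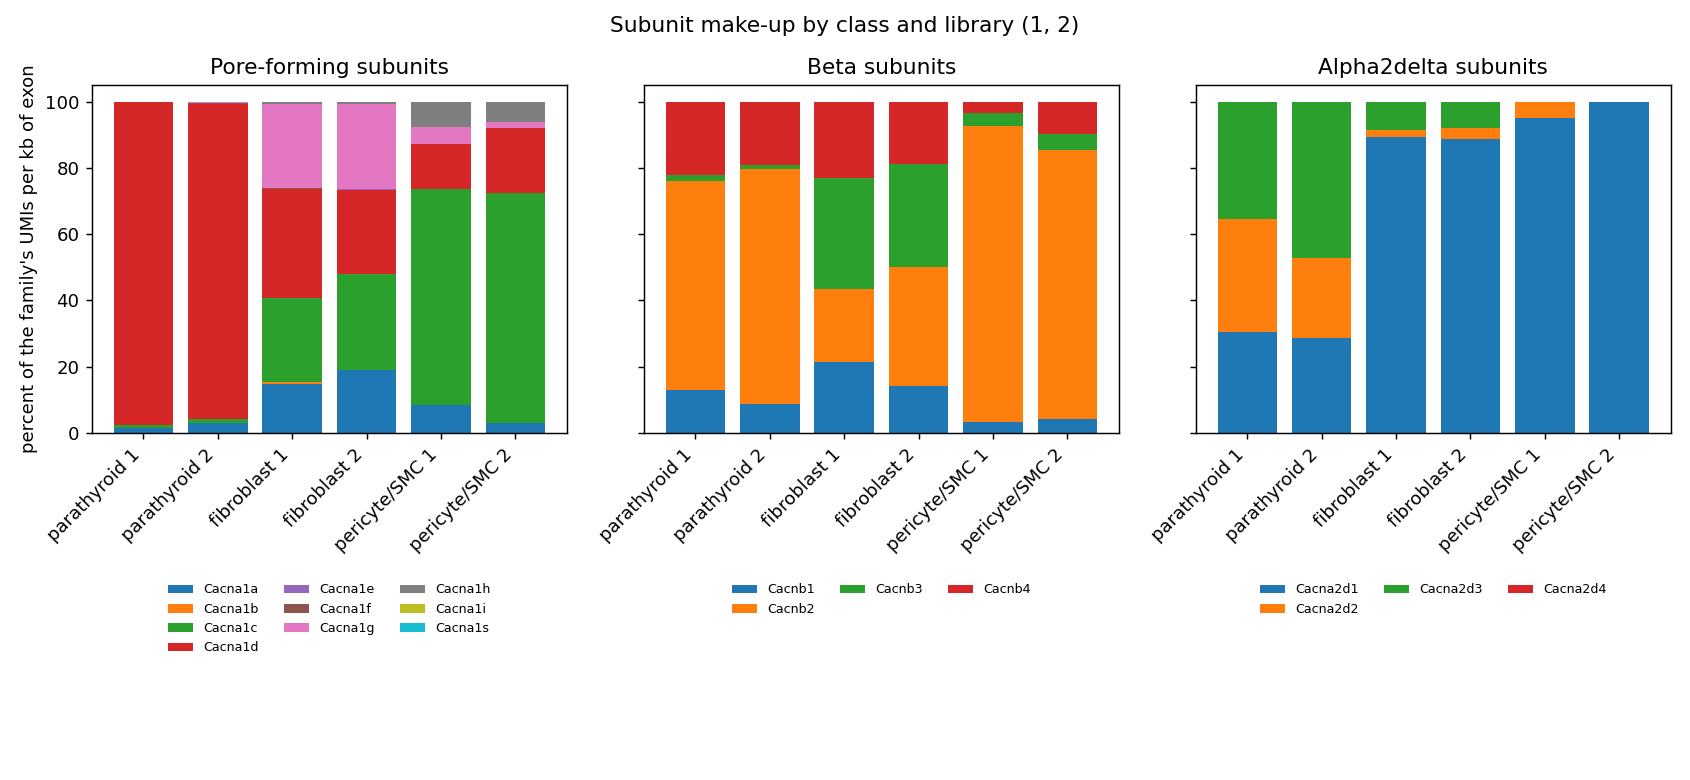
Share of each family's UMIs per kilobase of exon (vertical axis, percent) by subunit (colours), for parathyroid, fibroblast-like and pericyte or smooth-muscle-like cells in replicates 1 and 2 (horizontal axis). Cacna1d fills 97.3% and 95.1% of the pore bar in parathyroid cells, and Cacna2d1 89.4% and 88.7% of the α2δ bar in fibroblast-like cells.

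The start regions of Cacna1d and Cacnb2 are shown because these genes gave most of the parathyroid pore and β UMIs, raw or per exon length. Per gene span, Cacnb2 gave under 50% of the β signal. On its own chromosome each gene has a pair of RefSeq starts in GRCm38.p6, and any entry on another chromosome was left out. Each start is shown as a window of 300 bases that spans it, 5′ to 3′ on the gene's strand, with capitals marking motif matches.
Cacnb2 at chr2:14604056-14604355, plus strand: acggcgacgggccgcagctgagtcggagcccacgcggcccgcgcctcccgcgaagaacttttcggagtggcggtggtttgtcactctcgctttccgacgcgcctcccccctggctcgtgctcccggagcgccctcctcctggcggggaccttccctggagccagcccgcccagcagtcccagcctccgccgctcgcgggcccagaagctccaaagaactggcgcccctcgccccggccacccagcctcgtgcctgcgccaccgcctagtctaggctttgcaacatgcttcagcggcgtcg
Cacnb2 at chr2:14823842-14824141, plus strand: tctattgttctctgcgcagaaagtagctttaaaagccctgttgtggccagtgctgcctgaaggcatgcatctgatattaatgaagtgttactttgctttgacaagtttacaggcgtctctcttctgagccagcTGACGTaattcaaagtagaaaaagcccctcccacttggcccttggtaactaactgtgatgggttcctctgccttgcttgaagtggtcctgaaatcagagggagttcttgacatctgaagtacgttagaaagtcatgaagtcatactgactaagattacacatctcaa
Cacna1d at chr14:30491107-30491406, minus strand: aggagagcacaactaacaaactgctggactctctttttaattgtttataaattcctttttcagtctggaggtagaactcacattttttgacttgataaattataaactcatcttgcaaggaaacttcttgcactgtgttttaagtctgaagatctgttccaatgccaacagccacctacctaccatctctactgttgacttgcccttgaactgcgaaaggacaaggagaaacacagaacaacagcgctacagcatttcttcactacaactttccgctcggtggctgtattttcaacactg
Cacna1d at chr14:30353437-30353736, minus strand: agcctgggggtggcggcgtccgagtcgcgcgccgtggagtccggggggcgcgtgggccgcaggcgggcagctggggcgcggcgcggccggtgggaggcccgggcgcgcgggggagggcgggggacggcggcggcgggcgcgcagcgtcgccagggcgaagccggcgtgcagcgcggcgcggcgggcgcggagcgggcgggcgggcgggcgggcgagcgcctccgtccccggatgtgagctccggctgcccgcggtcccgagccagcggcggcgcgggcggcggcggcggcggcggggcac

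In each gene 1 start was rich in CpG and the other was not. The Cacnb2 starts held 35 and 4 CpG dinucleotides at 71.7% and 44.0% GC, and the Cacna1d starts held 4 and 63 at 40.3% and 87.3%. The median over the 32851 promoters of the RefSeq table was 52.7% GC. Both strands of each window were searched for 3 motifs. The GATA motif AGATAA was found in 11.2% of all promoters of this length and in none of the 4 windows. The motif ATGCGGG of GCM factors was found in 1.41% of all promoters and in none of the 4 windows. The cAMP response element half-site TGACGT was found in 7.51% of all promoters and, of the 4 windows, in the Cacnb2 start at 14823842. Of the 10 genes, 8 had entries in this table, with 16 start regions in all, counted on any chromosome. Tags from the 3′ end do not tell which start a transcript used.

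Among the pores, Cacna1d (ENSMUSG00000015968, chromosome 14, 30039939 to 30491455, minus strand, GRCm38) was at 173 CPM in parathyroid cells of replicate 1 (95% Poisson interval 169 to 178). Replicate 2 gave 118 CPM (116 to 121). Intervals here cover counting error only. The libraries therefore differed by more than counting error, and fibroblast-like cells, at 122 and 80.6 CPM, moved the same way. Macrophage-like cells had 57.4 and 42.6 CPM, pericyte or smooth-muscle-like cells 120.5 and 128 CPM in 10 and 22 cells, and endothelial-like cells 4.41 and 4.24 CPM. In order of mean level, parathyroid cells (146 ± 38.8 CPM, SD, n = 2), pericyte-like cells (124 ± 5.53) and fibroblast-like cells (101.4 ± 29.3) overlapped within their spread, and macrophage-like cells (50.0 ± 10.4) lay below them. The Dcp1a and Chdh genes overlap Cacna1d on the other strand, and the strand setting of the authors' counting is not known from these sources.

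Set against each other within a library, parathyroid and fibroblast-like cells did differ. In edgeR's quasi-likelihood test with library as a block, Cacna1d was higher in parathyroid than in fibroblast-like cells by 0.61 ± 0.15 (SE) on the log2 scale (adjusted p = 0.0033). The sign was the same in both libraries. Against macrophage-like cells the difference was 1.46 ± 0.17 (adjusted p = 1.05e-05) and against endothelial-like cells 5.25 ± 0.25 (adjusted p = 3.50e-09).

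Cacna1d was also widespread among parathyroid cells: 93.0% and 87.5% of them had at least 1 UMI. With every cell thinned to 10000 UMIs the share was 75.7% and 63.0%, against 54.0% and 41.6% of fibroblast-like cells, 39.6% and 26.8% of macrophage-like cells and 5.36% and 6.06% of endothelial-like cells. The level in fibroblast-like cells was 70.5% and 68.1% of that in parathyroid cells, while Pth, Gcm2, Casr, Chga and Kl, which free RNA would carry along, stood at a median of 0.826% and 0.839% of theirs. In endothelial-like cells Cacna1d was at 2.54% and 3.58%, against 1.16% and 1.25% for those genes.

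Cacna1c (ENSMUSG00000051331, chromosome 6, 118587240 to 119196418, minus strand), the L-type pore of heart and smooth muscle, was nearly the reverse. It was at 2.81 and 2.92 CPM in parathyroid cells, 159 and 152 in fibroblast-like cells, 38.8 and 27.8 in endothelial-like cells and 979 and 752 in pericyte or smooth-muscle-like cells. No parathyroid value came near the fibroblast-like or endothelial-like values. It was lower in parathyroid than in fibroblast-like cells by -5.66 ± 0.26 (log2, adjusted p = 4.67e-09) and than in endothelial-like cells by -3.24 ± 0.29 (adjusted p = 9.47e-07). Against macrophage-like cells, at 2.82 and 4.35 CPM, the difference of -0.50 ± 0.50 did not pass (adjusted p = 0.41). Among endothelial-like clusters, the one led by Alox12 and Sema3g had 64.5 and 62.4 CPM and the one led by Car4 22.0 and 10.96.

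Cacna1a (ENSMUSG00000034656, chromosome 8, 84388440 to 84640246, plus strand), a pore best known from nerve terminals, was at 2.51 and 3.22 CPM in parathyroid cells. It reached 50.1 and 53.9 CPM in fibroblast-like cells, 21.6 and 55.2 in macrophage-like cells and 23.1 and 30.8 in T-cell-like cells (10 and 14 UMIs). The parathyroid level was lower than the fibroblast-like level by -4.11 ± 0.25 (log2, adjusted p = 2.66e-08) and than the macrophage-like level by -3.86 ± 0.28 (adjusted p = 1.13e-07), and did not differ past the threshold from the endothelial-like level (-0.70 ± 0.43, adjusted p = 0.20). The macrophage-like spread lay in the cluster led by Retnla and Ccl24, where 9 cells held 0 UMIs in replicate 1, while 42 cells reached 121 CPM in replicate 2.

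Low levels of Cacna1a and Cacna1c in parathyroid barcodes can be set beside fibroblast markers. The 7 fibroblast markers, among them Col1a1 and Dcn, stood in the parathyroid class at a median of 0.0740% and 0.426% of their fibroblast-like level. Cacna1a stood at 5.01% and 5.97%, Cacna1c at 1.76% and 1.93% and Cacna2d1 at 4.69% and 4.39%. The Cacna1c count of replicate 2 included 19 of its 209 UMIs from 1 cell.

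Cacna1h (ENSMUSG00000024112, chromosome 17, 25374285 to 25433783, minus strand), a T-type pore, had 0 UMIs in parathyroid cells of replicate 1, which allows up to 0.0990 CPM, and 3 UMIs in replicate 2 (0.0420 CPM). Fibroblast-like cells had 1.82 and 1.46 CPM, and pericyte or smooth-muscle-like cells 52.7 and 31.0 CPM from 7 UMIs in each library. It did not pass the count filter and was not tested.

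**Figure D2:**
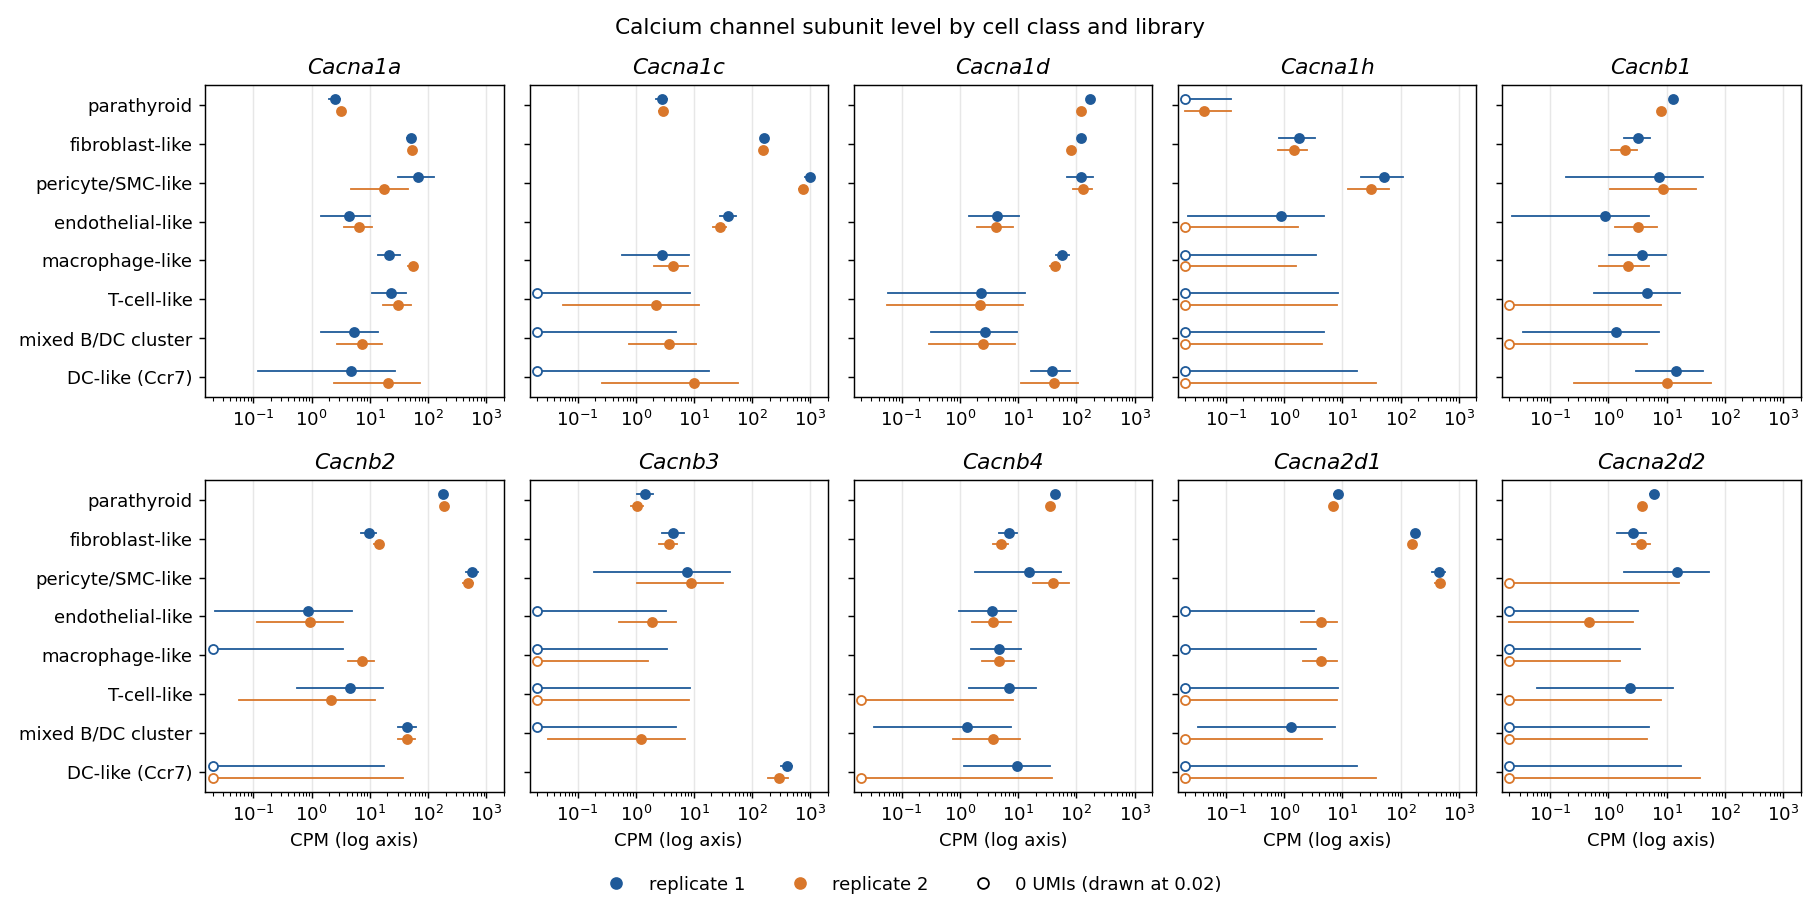
CPM (log axis) of each of the 10 genes in 8 cell classes, with points for replicates 1 and 2, bars for 95% Poisson intervals and open points for 0 UMIs, drawn at 0.02. Cacna1d and Cacnb2 sit above 100 CPM in parathyroid cells of both libraries, whereas Cacna1c and Cacna1a sit below 4.

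Of the β subunits, Cacnb2 (ENSMUSG00000057914, chromosome 2, 14603088 to 14987908, plus strand), the main β subunit of the heart, was at 183 CPM (178 to 187) and 191 CPM (188 to 194) in parathyroid cells. Fibroblast-like cells had 9.70 and 14.3 CPM, endothelial-like cells 0.881 and 0.942 (1 and 2 UMIs) and macrophage-like cells 0 and 7.39. The groups did not overlap. Cacnb2 was higher in parathyroid than in fibroblast-like cells by 4.04 ± 0.30 (log2, adjusted p = 1.33e-07), than in endothelial-like cells by 7.95 ± 0.53 (adjusted p = 6.37e-08) and than in macrophage-like cells by 5.23 ± 0.41 (adjusted p = 2.36e-07). Single cells carried much of the low counts elsewhere: 13 of 48 and 32 of 127 UMIs in fibroblast-like cells, and 13 of 17 in macrophage-like cells of replicate 2.

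Cacnb2 was not highest in parathyroid cells. Pericyte or smooth-muscle-like cells had 580 and 487 CPM, and the intervals of 457 to 725 and 400 to 586 lay above the parathyroid values in both libraries. The mixed cluster had 43.9 and 43.2 CPM, or 24.0% and 22.7% of the parathyroid level, where the 5 parathyroid genes stood at a median of 0.961% and 1.55%, with a highest value of 6.09% and 10.2%. At Leiden resolution 2 this cluster parted into a dendritic-cell-like and a B-cell-like cluster. Neutrophil-like cells had 40.5 and 85.6 CPM from 6 and 8 UMIs.

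Cacnb4 (ENSMUSG00000017412, chromosome 2, 52428320 to 52676831, minus strand), a β subunit best known from the brain, was at 43.6 and 35.1 CPM in parathyroid cells. Fibroblast-like cells had 6.87 and 5.05 CPM, macrophage-like cells 4.70 and 4.78, and endothelial-like cells 3.52 and 3.77, all below both parathyroid values. The differences from parathyroid cells were 2.82 ± 0.26, 2.92 ± 0.36 and 3.62 ± 0.38 on the log2 scale (edgeR adjusted p = 1.14e-06, 1.72e-05 and 3.95e-06). A Cacnb4 UMI was found in 46.4% and 42.7% of parathyroid cells, and in 24.9% and 21.9% after thinning.

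Cacnb1 (ENSMUSG00000020882, chromosome 11, 98001508 to 98023034, minus strand), the β subunit of skeletal muscle, was at 13.0 and 8.17 CPM in parathyroid cells, above 3.23 and 1.91 in fibroblast-like cells, 0.881 and 3.30 in endothelial-like cells and 3.76 and 2.17 in macrophage-like cells. It was higher by 2.13 ± 0.40, 2.26 ± 0.56 and 1.78 ± 0.55 (log2, edgeR adjusted p = 0.00054, 0.0041 and 0.014). The values of these 3 other classes rested on 1 to 17 UMIs per library. On the per-exon-length scale Cacnb2 gave 63.0% and 70.7% of parathyroid β UMIs, Cacnb4 22.2% and 19.2%, and Cacnb1 13.1% and 8.84%. Divided by gene span instead, Cacnb1 gave 44.4% and 34.7% and Cacnb2 34.9% and 45.3%, so the order of those genes depends on the length used.

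Cacnb3 (ENSMUSG00000003352, chromosome 15, 98630840 to 98644529, plus strand) was scarce in parathyroid cells, at 1.45 and 1.05 CPM, and in fibroblast-like cells, at 4.45 and 3.71. Macrophage-like and T-cell-like cells had 0 UMIs. In contrast, 11 and 5 dendritic-cell-like cells led by Ccr7 and Ccl22, genes of migratory dendritic cells, had 396 CPM (315 to 492) and 286 CPM (190 to 413). There it was found in 11 of 11 and 4 of 5 cells, and 19 of the 28 UMIs of replicate 2 came from 1 cell. This class was too small to be tested, and Cacnb3 did not pass the count filter.

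The α2δ genes divided the classes the other way. Cacna2d1 (ENSMUSG00000040118, chromosome 5, 15934691 to 16374511, plus strand), the widespread α2δ subunit that binds gabapentin, was at 177 and 159 CPM in fibroblast-like cells and 8.32 and 6.99 CPM in parathyroid cells. The parathyroid level was lower by -4.38 ± 0.33 (log2, edgeR adjusted p = 3.44e-07). Pericyte or smooth-muscle-like cells had 452 and 469 CPM, and lymphatic-endothelial-like cells 96.5 and 252 CPM from 3 and 11 UMIs. Endothelial-like cells had 0 and 4.24 CPM, and macrophage-like cells 0 and 4.35. The difference from endothelial-like cells, 1.73 ± 0.66, passed narrowly (adjusted p = 0.044), and it did not pass with DESeq2 scaling (adjusted p = 0.061) or the DESeq2 Wald test (0.11). The difference from macrophage-like cells, 1.30 ± 0.66, did not pass (adjusted p = 0.11).

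Cacna2d2 (ENSMUSG00000010066, chromosome 9, 107399612 to 107529343, plus strand), an α2δ subunit of cerebellar neurons, was at 5.97 and 3.83 CPM in parathyroid cells and 2.63 and 3.71 in fibroblast-like cells. Macrophage-like cells had 0 UMIs and endothelial-like cells 0 and 1. It did not pass the count filter. With Cacna2d3, from the list of other subunits, at 6.80 and 8.10 CPM, the α2δ genes summed to 21.1 and 18.9 CPM in parathyroid cells against 192 and 173 in fibroblast-like cells. The β genes ran the opposite way, summing to 241 and 235 CPM against 24.2 and 24.9.

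Subunits were also counted together in single cells. Cacna1d and Cacnb2 were both found in 83.6% and 79.0% of parathyroid cells and in 4.35% and 3.09% of fibroblast-like cells. Any β gene was found in 92.4% and 93.4% of parathyroid cells and 28.3% and 22.7% of fibroblast-like cells. Any of Cacna2d1, Cacna2d2 and Cacna2d3 was found in 40.9% and 31.5%, against 86.5% and 83.4%. A pore gene of the 10 members, a β gene and any of those α2δ genes were found together in 38.6% and 27.7% of parathyroid cells. The shares were 23.9% and 18.3% of fibroblast-like cells, and 7 of 10 and 11 of 22 pericyte or smooth-muscle-like cells. Cacna1g, which fibroblast-like cells carried, was not counted as a pore here. These shares are not thinned, and depth differed between the classes as given above.

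Among parathyroid barcodes, Cacna1d, Cacnb2 and Cacnb4 were at lower levels where Pth took the largest share. To keep Pth itself out of the scale, CPM were computed without Pth. From 10 to 15% Pth to at least 20%, Cacna1d went from 215 (208 to 222) to 112 (85.0 to 145) in replicate 1 and from 159 (154 to 165) to 99.7 (89.5 to 111) in replicate 2. Cacnb2 went from 228 (221 to 236) to 134 (104 to 170) and from 251 (245 to 258) to 190 (176 to 205). Cacnb4 went from 52.6 to 33.5, with intervals that overlapped in replicate 1, and from 47.1 to 30.2. The strata with the most Pth held 25 and 172 cells at median depths of 28873 and 28625 UMIs, against 386 and 794 cells at 38669.5 and 31104. The part of depth was not tested, and no test was made over cells.

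The barcodes just above the limit of 5% extended this pattern for Cacna1d and Cacnb4 in replicate 1, but not for Cacnb2 in either library. At 5 to 10% Pth, Cacnb2 had 180 CPM (154 to 210) in replicate 1, below its value at 10 to 15%, and 236 (210 to 263) in replicate 2. In the same stratum Cacna1d had 275 CPM in 34 cells of replicate 1 and 139 in 55 cells of replicate 2, and Cacnb4 had 95.03 and 41.7. In that stratum of replicate 2, Cacna1c was at 25.0 CPM and Cacna2d1 at 29.6, against 3.14 and 8.93 at 10 to 15% Pth. Just below the limit, the 14 and 22 barcodes with 1 to 5% Pth had 213 and 132 CPM of Cacna1d and 213 and 276 CPM of Cacnb2 on the scale with Pth.

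**Figure D3:**
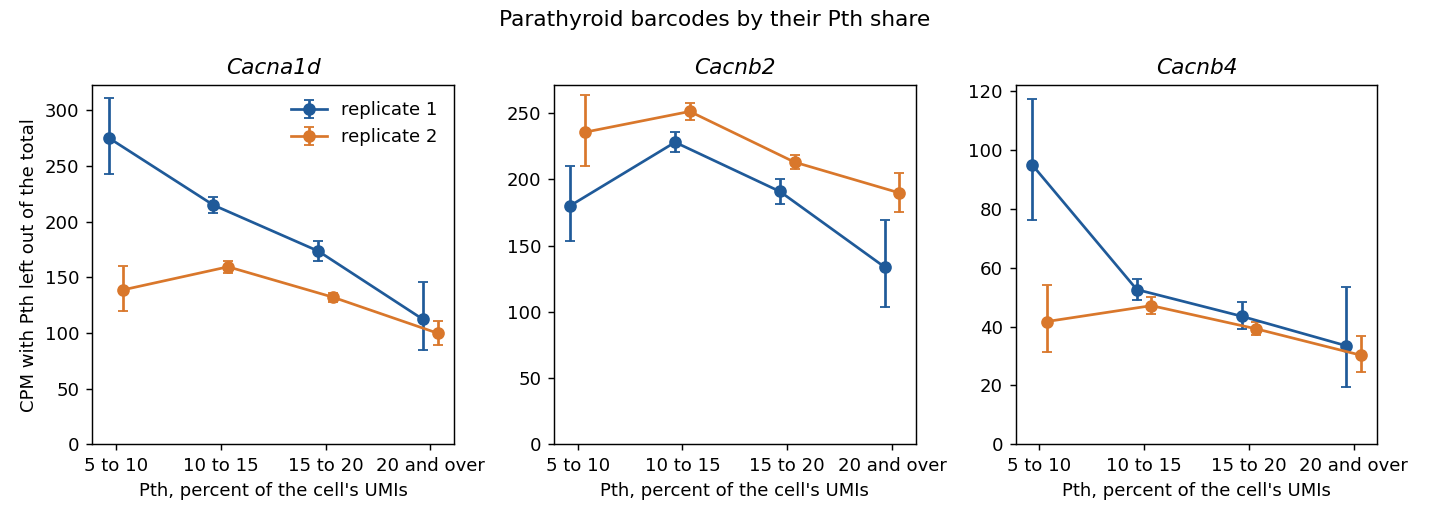
CPM with Pth left out (vertical axis, from 0) of Cacna1d, Cacnb2 and Cacnb4 in parathyroid barcodes grouped by Pth share (horizontal axis, percent of the cell's UMIs), with 95% Poisson intervals. In both libraries the group with at least 20% Pth lies below the group with 10 to 15%.

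Across all genes the fit tested 13279, and 7 of the 10 members passed its count filter, all except Cacna1h, Cacnb3 and Cacna2d2. Against fibroblast-like cells 4 of the 7 were called higher and 3 lower at an adjusted p of 0.05, where 29.8% of all tested genes were called higher and 29.6% lower. The members' median log2 fold change was 0.61 beside 0.07 for all tested genes. Against endothelial-like cells 5 were higher and 1 lower (28.7% and 25.4% of all genes), and against macrophage-like cells 4 and 1 (30.8% and 29.3%). The medians there were 2.26 beside 0.16 and 1.46 beside 0.11. The replicates are separate pools of mice, and p-values set class differences beside their variation between these 2 pools. In the edgeR fit the variation of each gene is moderated by that of all tested genes. A p-value therefore does not rest on the values of 1 gene alone.

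Against the unweighted mean of the 5 other classes with at least 20 cells per library, 4 members were higher and 2 lower (36.6% and 19.8% of all genes), with a median of 2.55 beside 0.20. Of all genes called there, 65.0% were higher. The DESeq2 Wald test gave 48.9%, with a median over all genes of -0.01. With DESeq2 size factors in edgeR the share was 58.5% and the median 0.07. Cacna1d (3.90 ± 0.15, adjusted p = 5.92e-10), Cacnb2 (5.10 ± 0.24), Cacnb4 (3.44 ± 0.23) and Cacnb1 (2.55 ± 0.38) were higher, and Cacna1a was lower (-2.53 ± 0.26, adjusted p = 3.30e-06). These sizes depend on the weighting of the classes. With all other cells as 1 class, Cacna1d was higher by 1.37 (edgeR adjusted p = 0.00038), Cacnb2 by 3.44, Cacnb4 by 3.03 and Cacnb1 by 2.28, and Cacna1a was at -3.44 and Cacna1c at -4.91. The call for Cacna1c (-1.42 ± 0.57, adjusted p = 0.0496) was lost at resolution 2, with a stricter mitochondrial limit and with predicted doublets kept, and without replicate 2 its value was 1.02. Cacna2d1 was not called (2.30 ± 0.96, adjusted p = 0.060), and its sign runs against the mean CPM of 7.66 in parathyroid and 34.7 over the other classes. Both genes had 0 UMIs in some of the classes averaged, where a mean of logs is poorly defined.

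**Figure D4:**
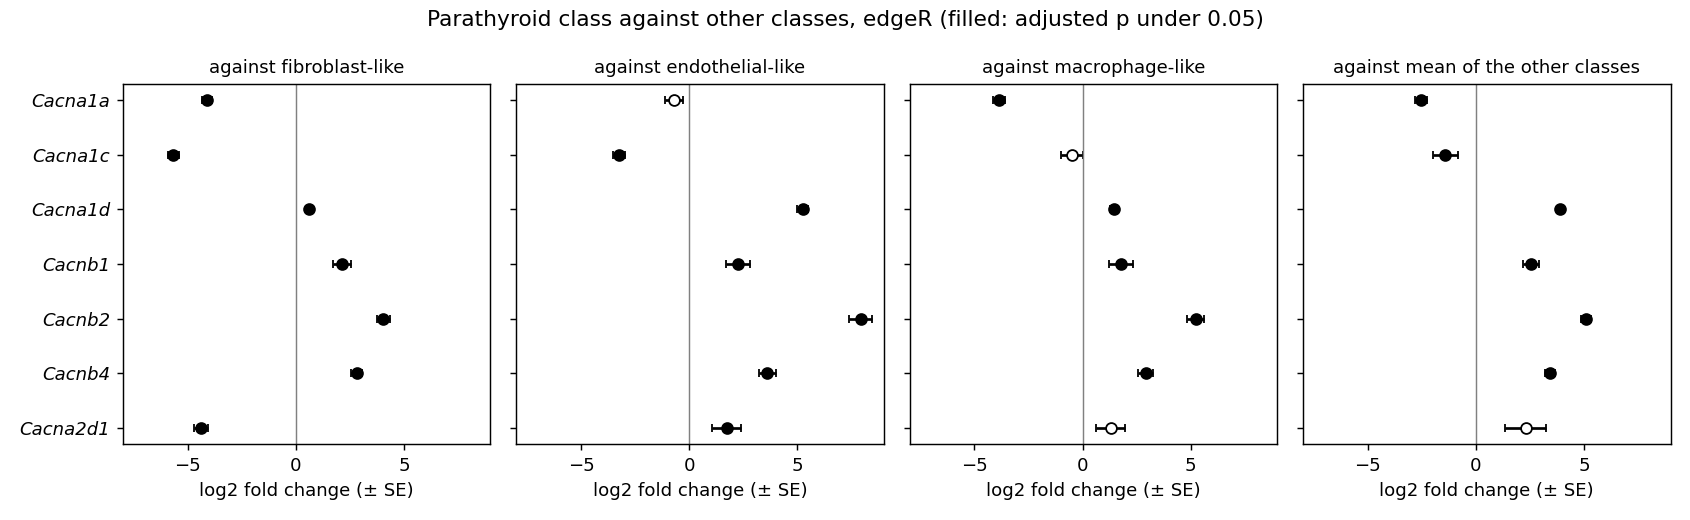
Log2 fold change (horizontal axis, ± SE) of the 7 tested members in parathyroid cells against fibroblast-like, endothelial-like and macrophage-like cells and against the mean of the 5 other classes. Filled points passed an adjusted p of 0.05; Cacnb2, Cacnb4, Cacnb1 and Cacna1d lie right of 0 in all 4 panels.

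Other genes of the pathway were taken from lists. Among the 16 other calcium channel subunits, 4 were tested. Against the mean of the other classes 1 was called higher and 0 lower, beside 36.6% and 19.8% of all tested genes. The list median was 0.25 beside 0.20 for all genes. In that contrast Cacna1e and Cacna1g had SEs of 1149 and 7.09, with 0 UMIs in some of the classes averaged. They could hardly be called lower there, so the count of 0 and the median carry little. The gene called was Cacna2d3, an α2δ gene with 0 UMIs in some of the classes averaged (5.49 ± 0.74, adjusted p = 8.20e-05), which in fibroblast-like cells was at 11.7 and 10.2 CPM, above its parathyroid level, and did not differ past the threshold from them (-0.46 ± 0.33, adjusted p = 0.25). The uncalled Cacng7, a γ subunit gene, was at 1.02 and 0.504 CPM in parathyroid and 33.3 and 19.2 in fibroblast-like cells. Against fibroblast-like cells 3 of the 4 were called lower and 0 higher, beside 29.6% and 29.8% of all tested genes. Cacna1g was among the lower genes, at 0.0330 and 0.322 CPM against 75.8 and 64.9 (-8.17 ± 0.46, edgeR adjusted p = 7.99e-08).

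Of 30 genes whose products regulate or bind these channels, 18 were tested. In this list 6 were higher and 5 lower against the mean of the other classes (median -0.31), beside 36.6% and 19.8% of all tested genes. Rem1, Stac and Akap6 had SEs far larger than their log2 fold changes in that contrast and could hardly be called. The count of lower genes and the median are therefore uncertain. Rims2, an active-zone scaffold of regulated secretion, was at 114 and 106 CPM in parathyroid cells and 8.29 and 15.4 in fibroblast-like cells (3.31 ± 0.31 between them). Against the mean it was higher by 7.35 ± 0.38 (edgeR adjusted p = 1.85e-08). That size is poorly defined, since Rims2 had 0 CPM in T-cell-like cells of both libraries. Camk2b, a calcium- and calmodulin-dependent kinase, was at 91.7 and 79.4 CPM against 9.30 and 10.4 in fibroblast-like cells (2.42 ± 0.14 against the mean, edgeR adjusted p = 1.65e-08). Calm3, a calmodulin gene, was at 197 and 208 CPM against 113 and 140 in fibroblast-like cells (1.09 ± 0.13 against the mean, edgeR adjusted p = 1.33e-05). The kinase gene Prkacb, at 59.6 and 51.5 CPM, was not called (0.03 ± 0.18, adjusted p = 0.98). Gem, a small GTPase that binds β subunits, was at 24.8 and 20.5 CPM in parathyroid and 535 and 523 in fibroblast-like cells and is named after its values were seen (-4.46 ± 0.38, edgeR adjusted p = 5.40e-07). Against fibroblast-like cells 5 of the 18 were higher and 8 lower (median -0.51), beside 29.8% and 29.6% of all tested genes.

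Of 19 sodium channel and leak genes 17 were found among the features and 5 tested. Against the mean of the other classes 1 was higher and 0 lower (median 0.77), beside 36.6% and 19.8% of all tested genes. Scn7a and Nalcn had SEs of 132 and 17.3 there and could hardly be called lower, so these counts carry little. Scn4b, a sodium channel β subunit, was at 11.7 and 7.89 CPM in parathyroid and 0.202 and 0.337 in fibroblast-like cells (5.04 ± 0.62 between them). Against the mean it was higher by 5.19 ± 0.57 (edgeR adjusted p = 8.86e-06), a size that is poorly defined. It had 0 CPM in T-cell-like cells of both libraries. Against fibroblast-like cells 1 was higher and 4 were lower (median -4.53), beside 29.8% and 29.6% of all tested genes. Of 6 intracellular calcium release channels 5 were tested. Against the mean of the other classes 1 was higher and 2 lower (median -0.95), beside the same 36.6% and 19.8%. Ryr1 had an SE of 161 there and could hardly be called. The IP3 receptor Itpr1 was at 450 and 334 CPM in parathyroid cells and 122 and 98.7 in fibroblast-like cells. Against the mean it was higher by 1.86 ± 0.16 (edgeR adjusted p = 6.84e-07). It was not particular to parathyroid cells, since the mixed cluster had 377 and 272 CPM. Itpr2 was lower (-1.51 ± 0.16, adjusted p = 5.52e-06), and so was Itpr3 (-0.95 ± 0.22, adjusted p = 0.0027), while the ryanodine receptor Ryr2, at 0.264 and 0.0839 CPM, was not called (0.11 ± 0.37). Against fibroblast-like cells 2 were higher and 2 lower (median -1.08), beside 29.8% and 29.6% of all tested genes. In fibroblast-like cells Itpr3, at 1.21 and 1.24 CPM, was lower than in parathyroid cells (2.06 ± 0.35, edgeR adjusted p = 0.00022).

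By Pearson correlation of log2(CPM + 1) over the 12 sums of 6 classes and 2 libraries, the tested genes most like Cacna1d were Gng7 (0.98), Ppp1r9a (0.97) and Efhb (0.96). Those most like Cacnb2 were Evi5l (0.93), Patj (0.92) and Nkain2 (0.90), and those most like Cacna2d1 were Olfr1033, Il17d and Nova1 (0.98 each). The sums share libraries and classes, and these values are descriptions.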

How the data were processed

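The 2 libraries were analysed. The authors deposited raw UMI counts per gene and barcode, made with Cell Ranger 7.0.0 on mm10, per the submitters' processing notes. Replicate 1 held 1406 barcodes with 41517620 UMIs and replicate 2 held 3518 with 88283761. The calling of cells, the treatment of intronic reads and the strand setting are not given in the sources used here. Per the labels' protocols, tissue was digested with enzymes, doublets were sorted out by flow cytometry and a 3′ kit was used.

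Barcodes kept had at least 500 genes, under 15% mitochondrial and under 5% haemoglobin UMIs. Also removed were 23 and 6 barcodes that Scrublet called doublets (1.64% and 0.171%). The second share means the caller marked few cells of replicate 2. Barcodes with under 1% Pth were clustered with scanpy 1.11.5 (2000 variable genes, 30 components, 15 neighbours, Leiden resolution 1) without the listed and marker genes. Names needed a mean log2 marker ratio of at least 0.5 and at least 3 markers, and this scoring was set after the data were seen. The parathyroid and dividing-cell markers were not used for naming. Clusters whose second type scored at least 2 and had a marker among the 10 leading genes were called mixed, except that macrophage and monocyte were treated as 1 class.

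UMIs were summed per class and library, and CPM are those sums scaled to the class total. edgeR 4.0.16 (TMM, filterByExpr, quasi-likelihood test, Benjamini-Hochberg) was fitted to 12 sums with library as a block, since each library is 1 pool of animals, which left 5 residual degrees of freedom. It was tested on simulated data. DESeq2 1.42.0 and the settings in the closing section were alternatives. Shares have exact binomial and CPM exact Poisson 95% intervals. A count of 0 allows up to 3 UMIs. All 10 genes are named. Each other list gives up to 4 called genes of smallest p and the uncalled gene of highest parathyroid CPM; some genes this rule picks are not reported here. The members and lists were chosen with earlier results of these data known.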

Additional observations from a re-analysis of the deposited data

Results flagged for a closer look

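Of the barcodes with under 1% Pth, 14 that belonged to no named class carried member transcripts above the limit that a count of 0 allows. These barcodes formed no class in the main fit. They were among the cells pooled for the marker values over the other cells and for the setting with all other cells as 1 class. They formed a cluster of 6 and 8 cells without a name, led by Erbb4, Zfp804b and Syn2 and also by Casr, with 0.764% and 0.571% Pth and median depths of 5402 and 3164 UMIs. Among the named clusters, Pth was highest in neutrophil-like cells, at 0.239% and 0.234%. Parathyroid markers took no part in naming, so the unnamed cluster could not be named parathyroid. Its Cacna1d levels were 403 CPM (95% Poisson interval 231 to 655) from 16 UMIs and 289 CPM (125 to 569) from 8 UMIs. Cacnb2 was at 277 CPM (138 to 496) and 1445 CPM (1032 to 1967), from 11 and 40 UMIs, with at most 5 and 12 from 1 cell. Carry-over at the Pth share of these barcodes would give 9.27 and 4.27 CPM of Cacna1d and 9.77 and 6.87 CPM of Cacnb2.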

How the results depend on the processing

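Of 343 alternative values of the members' log2 fold changes, 320 kept their direction and their side of the threshold, or moved by less than the spread between libraries. The last rule applied to values from 1 library and used the SD of the 2 single-library values. A main value midway between them always meets it, so those values say little about stability. The number of members called lower against the mean, 2, fell to 1 at Leiden resolution 2, with a mitochondrial limit of 10% and with predicted doublets kept, and rose to 5 with all other cells as 1 class, where all 10 members were tested. The number lower than fibroblast-like cells, 3, rose to 5 without a filter on low counts, where Cacna1h and Cacnb3 were also called. The other numbers of members called stayed within 1.5 times. Leaving out the library block (no replicate block) gave 4 higher and 2 lower against the mean and 4 and 3 against fibroblast-like cells, as with it. With all other cells as 1 class Cacna2d1 reversed to -3.47, and without replicate 2 Cacna1c reversed to 1.02 (without replicate 1 it was -1.76), where it had 0 UMIs in 2 of the classes averaged. Without a replicate no residual degrees of freedom remained, so those values have no test and give no count of calls. Under the other settings, Cacna1c reached an adjusted p of 0.090 (edgeR) at resolution 2, and Cacna2d1 against the mean passed at resolution 2 (0.042), with doublets kept (0.042) and without the filter (0.0024). For all genes against the mean, the higher share of calls was 65.0%, and 58.5% with DESeq2 size factors and 48.9% with the DESeq2 Wald test. At 5000 UMIs per cell the Cacna1d share of parathyroid cells was 53.6% and 41.5% and the Cacnb2 share 49.5% and 52.3%. Depth limits the classes of under 40 cells, where 1 UMI is worth several CPM.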

Other observations

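The pericyte or smooth-muscle-like cells, 10 in replicate 1 and 22 in replicate 2 and too few to be tested, carried members of all 3 subunit families. Cacna1c gave 65.3% and 69.2% of their pore UMIs per exon length, Cacnb2 89.4% and 81.0% of their β UMIs and Cacna2d1 95.1% and 100% of their α2δ UMIs, a set known from smooth muscle. Their Cacnb2 level was above that of parathyroid cells, but their main pore was Cacna1c where parathyroid cells had Cacna1d.

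Within the fibroblast-like cells, Cacna1d and Cacna1c varied between clusters in both libraries. The cluster led by Ntrk3 and Dlk1 had 286 and 190 CPM of Cacna1c with 88.5 and 28.1 of Cacna1d. The cluster led by Pappa2 had 55.0 and 81.6 CPM of Cacna1c with 162 and 165 of Cacna1d. Parathyroid cells had 173 and 118 CPM of Cacna1d, so this cluster lay below them in replicate 1 and above them in replicate 2. Cacna1a lay between 38.4 and 71.7 CPM over the 6 clusters and Cacna2d1 between 100.3 and 241. No test was made between clusters.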
